A study of Mus musculus with 6 samples.

Results

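The genes described here encode the machinery that makes, reads and ends cyclic AMP (cAMP) and heterotrimeric G-protein signals in the mouse pituitary gland. They were chosen by gene symbol as the numbered adenylyl cyclases, phosphodiesterases and RGS proteins, the 6 subunits of protein kinase A (PKA), and the G alpha (without Gnas), G beta and G gamma subunits. The rule found 90 of 50348 gene names: 10 adenylyl cyclases, 22 phosphodiesterases, 6 PKA subunits, 21 RGS proteins, 15 G alpha, 5 G beta and 10 G gamma subunits, and Gnasas1. Gnasas1 is named as an antisense RNA of the Gnas locus, matched the letters of the G alpha pattern only, and was listed at 0 in every library.

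RNA was sequenced once per group. Adult groups were 42 pooled glands of Tshbcre-YFP mice, 12 of Ghcre-YFP mice and 7 of Lhbcre-YFP mice, each sorted for the fluorescent cells, and 1 gland of a nontransgenic mouse, all at 7 weeks of age. Groups at postnatal day 7 (P7) were 5 pooled Tshbcre-YFP glands, sorted in the same way, and 8 nontransgenic glands. In a sorted group, Cre under the promoter of the named hormone gene switches on YFP at the ROSA locus, so that the fluorescent fraction holds cells in which the driver was active at any time. With 1 library per group there is no replicate error, no test and no standard deviation for any value below. Differences are therefore between libraries, and in pooled cells fewer cells of a type and less RNA per cell cannot be told apart.

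A hormone such as corticotropin-releasing or growth hormone-releasing hormone binds a receptor coupled to Gs, and the released G alpha subunit stimulates adenylyl cyclase, which makes cAMP. cAMP binds the regulatory subunits of PKA and frees the catalytic ones; dopamine and somatostatin receptors act through Gi and Go to lower cAMP, and the receptors for thyrotropin-releasing and gonadotropin-releasing hormone act through Gq. Phosphodiesterases degrade cyclic nucleotides, and RGS proteins speed the hydrolysis of GTP on Gi/o and Gq subunits, which ends their signal.

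Levels are in scaled FPKM: the deposited FPKM (mapped fragments scaled by transcript length and library size) was summed over the annotated transcripts of a gene and divided by a factor per library, which lay between 0.758 for adult Ghcre cells and 1.42 for the P7 whole gland. A gene was called higher or lower between 2 libraries at a 4-fold difference or more on the scale of log2(scaled FPKM + 1), with the higher library at 1 or more. The fold changes printed here are on that scale, which understates the change of low genes. The relative depth of the libraries, from the deposited coverage per FPKM, was highest at 2.73 times that of the adult whole gland, in the adult Ghcre library. The adult Ghcre table stopped within chromosome 5 and listed 67 of the 90 genes; the other tables listed all of them. Tshb, the beta subunit gene of thyrotropin, reached 1075 scaled FPKM in adult Tshbcre cells, against 33.1 in the adult whole gland, and 3001 in P7 Tshbcre cells, against 61.0 in the P7 gland. Lhb, the beta subunit gene of luteinizing hormone, stood at 2904 in the adult Tshbcre library and 2198 in the adult Lhbcre library, against 637 in the adult whole gland, so this gonadotrope gene was high in both sorted libraries. Adult Tshbcre cells also held the growth hormone gene Gh at 14810. The prolactin gene Prl was at 6546 there, against 17580 in the adult whole gland. RNA of other hormone lineages was thus present in that sort. Gh is not listed for the adult whole gland, Ghcre and Lhbcre cells. The adult Gh level therefore has no other adult value beside it, and the Ghcre driver could not be checked on Gh. At P7, Gh was at 3870 in Tshbcre cells, against 6031 in the whole gland. Pappa2 and Neurod4, from the list of somatotrope markers, stood at 32.8 and 15.9 in Ghcre cells, against 18.7 and 5.07 in the adult whole gland. Neurod4 was also at 13.3 in Lhbcre cells.

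Of the 90 genes, 70 reached 1 scaled FPKM in at least 1 library, 29 reached 10, and 40 were at 1 or more in every library that listed them. The other 20 stayed under 1 throughout: Adcy1 and Adcy10, the phosphodiesterases Pde4c, Pde6a, Pde6b and Pde6c, the RGS genes Rgs6, Rgs13, Rgs14, Rgs18, Rgs20 and Rgs21, the G alpha genes Gna15, Gnat1, Gnat2 and Gnat3, the G gamma genes Gng7, Gng8 and Gng13, and Gnasas1. The list includes the photoreceptor and taste forms of the families (Pde6a, Pde6b, Pde6c, Gnat1, Gnat2, Gnat3). Between 54 and 60 genes were at 1 or more in each of the 5 complete tables, and 33 of the 67 listed were so in the adult Ghcre library. The heat map of levels shows these 70 genes by family.

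**Figure D1:**
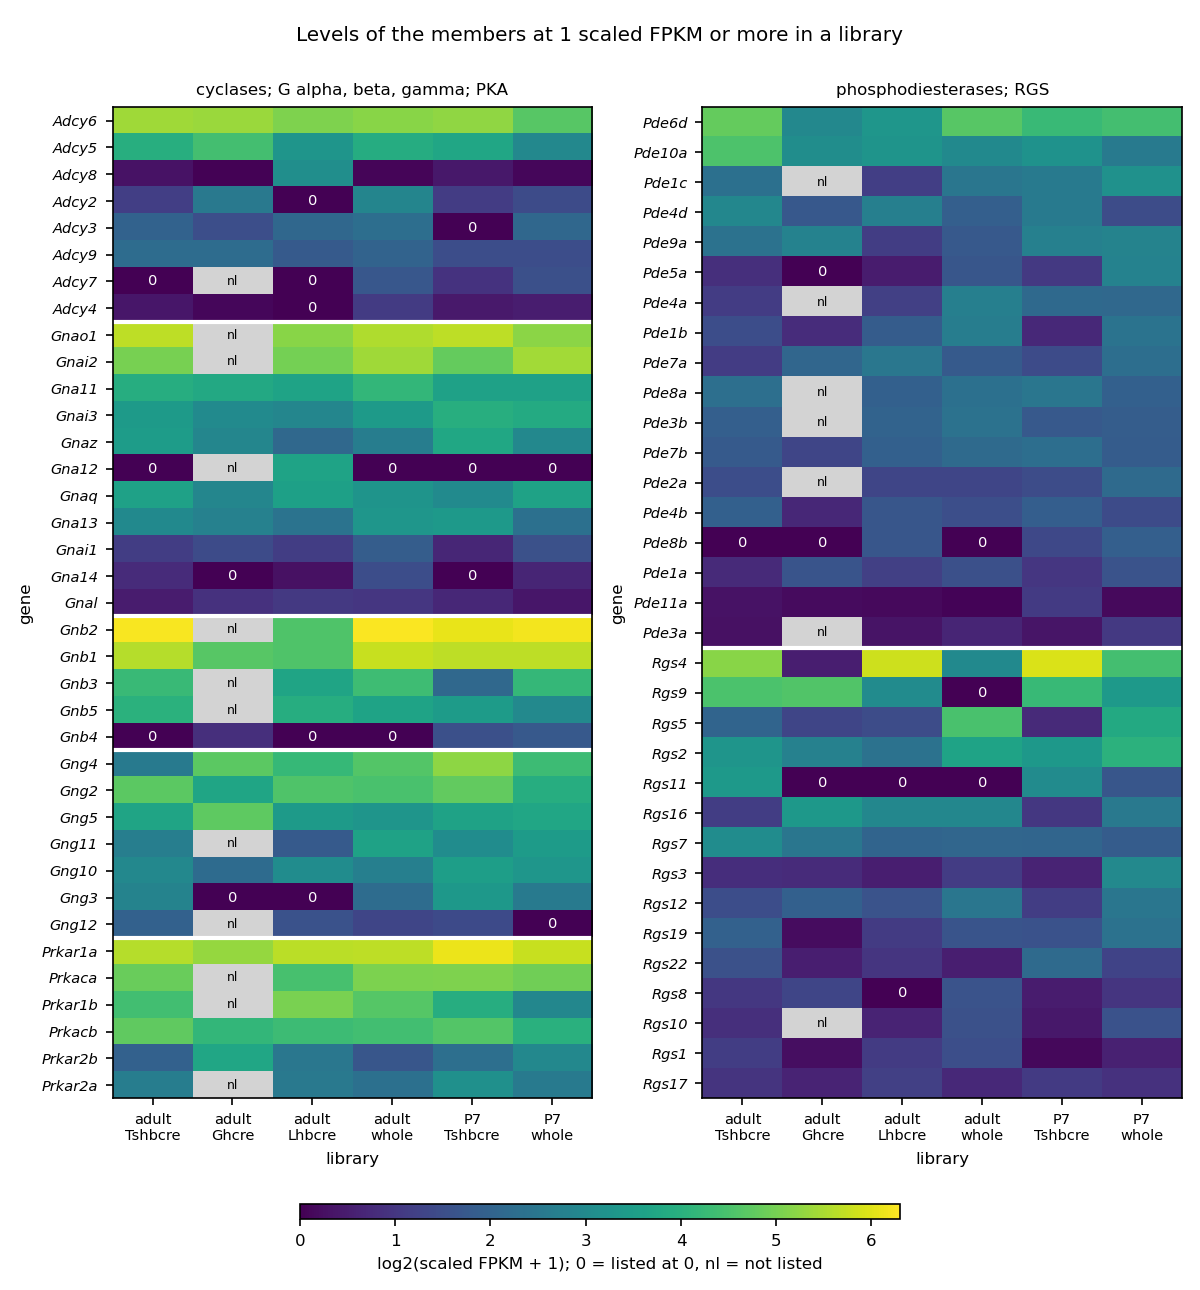
Levels of the 70 genes that reached 1 scaled FPKM, as log2(scaled FPKM + 1) by colour, with genes down the page by family and the 6 libraries across; 0 marks a gene listed at 0 and nl a gene not listed. Rgs4, Rgs5, Rgs9 and Adcy8 stand out against rows of nearly even colour such as Gnao1, Prkar1a and Adcy6.

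Over the 7 comparisons made, 28 calls were counted, from 13 of the genes. RGS genes gave 14 of the calls, with 11 to 14 compared each time. Adenylyl cyclases gave 4 (5 to 8 compared) and G gamma subunits 5 (5 to 7). G alpha subunits gave 2 (7 to 11), G beta subunits 2 (1 to 5) and PKA subunits 1 (3 to 6). No phosphodiesterase was called on annotated transcripts among the 10 to 18 compared. These sums run over comparisons that share libraries. Of all genes, between 6.59% and 9.8% were called per comparison. The RGS calls came from Rgs3, Rgs4, Rgs5, Rgs9 and Rgs11, and every Rgs9 call rested on its 0 in the adult whole gland. Of the 28 calls, 13 rested on a gene listed at 0 in 1 of the libraries. Cufflinks also assembled unnamed transcripts, and adding those at the locus of a single named gene left 12 of the 28 calls in place. It also made a call of a phosphodiesterase, Pde2a, named after its values were seen. With them Pde2a was at 17.0 scaled FPKM in adult Tshbcre cells, against 1.48 in Lhbcre cells. On annotated transcripts these values were 1.80 and 1.48. Calls for Rgs4 in 2 comparisons, for Rgs5 in 4 and for Adcy8 in 2 were kept under all 9 processing alternatives, 8 in all. Of these alternatives, a fold of 2, a pseudocount of 0.1 and no filter on low values cannot drop a call. Keeping a call under those therefore says nothing of it. The 8 calls were also above 0 in both libraries with the higher at 5 or more, so the filters on low values could not drop them. No assembled transcript added to their values. Only the changes of scaling (FPKM as deposited, factors from 5 libraries, an equal sum of FPKM) could have moved these calls. Rgs4, Rgs5 and Adcy8 are described first.

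Read comparison by comparison, the share of these genes that was called in either direction was slightly above that of all genes in the 3 adult sorted libraries against the adult whole gland, and below it in the other 4 comparisons. In adult Tshbcre cells against the adult whole gland, 3 of 62 genes were called higher (Rgs4, Rgs9 and Rgs11) and 2 lower (Rgs5 and Gng4), beside 7.06% of all genes called in either direction (3.22% higher and 3.84% lower). In Ghcre cells, 2 of 43 were higher (Rgs9 and Prkar2b) and 3 lower (Rgs4, Rgs5 and Gng3), beside 9.8% of all genes (4.44% higher and 5.36% lower). In Lhbcre cells, 4 of 65 were higher (Rgs4, Rgs9, Adcy8 and Gna12) and 3 lower (Rgs5, Adcy2 and Gng3), beside 9.31% of all genes (3.85% higher and 5.46% lower). In P7 Tshbcre cells against the P7 whole gland, none of 63 was higher and 4 were lower (Rgs5, Rgs3, Gnb3 and Adcy3), beside 9.38% of all genes (3.26% higher and 6.11% lower). Between the adult and the P7 whole glands, 1 of 65 was called (Rgs9, lower), beside 6.59% of all genes (3.28% higher and 3.31% lower). Between adult and P7 Tshbcre cells, 2 of 60 were called (Gnb3 higher and Gng4 lower), beside 8.21% of all genes (4.64% higher and 3.57% lower). Between adult Tshbcre and adult Lhbcre cells, 2 of 61 were higher (Gng3 and Rgs11) and 2 lower (Adcy8 and Gna12), beside 9.3% of all genes (4.97% higher and 4.33% lower). Among genes above 0 in both libraries the counts, in the same order of comparisons, were 3 of 59 (1.44% of all such genes), 3 of 39 (2.79%), 3 of 57 (2.43%), 3 of 61 (3.16%), none of 60 (1.14%), 2 of 57 (1.31%) and 1 of 55 (2.02%). With assembled transcripts added they were 2 of 65 (4.98% of all genes), 3 of 46 (7.59%), 4 of 68 (6.77%), 1 of 68 (7.59%), none of 67 (5.02%), none of 67 (5.66%) and 3 of 67 (6.75%).

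Rgs4 and Rgs5 are neighbours on chromosome 1 in the coordinates of the files (mm39). Rgs5 lies at chr1:169483070-169523382 and Rgs4 at chr1:169569046-169575211, with 45663 bases between them. Both encode small RGS proteins that act on Gi/o and Gq subunits; Rgs5 is widely used as a marker of pericytes, the contractile cells around capillaries. In all, 11 of the 21 RGS genes are on this chromosome, among them Rgs16, which was named after its values were seen. The 250 bases before the annotated starts of these 3 genes (RefSeq, GRCm38.p6) are shown because Rgs4 and Rgs5 were called in opposite directions in adult Tshbcre and in Lhbcre cells (both were lower in Ghcre cells), and Rgs16 was low in both Tshbcre libraries. Capitals mark TGACG, the core of the cAMP response element, on either strand (CGTCA on the other). The windows are chr1:169747643-169747892 on the minus strand for Rgs4, chr1:169655251-169655500 on the plus strand for Rgs5 and chr1:153740103-153740352 on the plus strand for Rgs16.
Rgs4: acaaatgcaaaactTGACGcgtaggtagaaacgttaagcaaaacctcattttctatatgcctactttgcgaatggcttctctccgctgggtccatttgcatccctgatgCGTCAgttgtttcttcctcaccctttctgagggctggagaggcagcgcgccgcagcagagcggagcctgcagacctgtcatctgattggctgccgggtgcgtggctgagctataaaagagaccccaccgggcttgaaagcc
Rgs5: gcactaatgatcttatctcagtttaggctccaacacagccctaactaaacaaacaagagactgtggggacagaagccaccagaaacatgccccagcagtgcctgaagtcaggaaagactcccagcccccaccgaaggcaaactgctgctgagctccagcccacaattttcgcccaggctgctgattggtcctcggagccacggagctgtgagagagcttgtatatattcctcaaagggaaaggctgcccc
Rgs16: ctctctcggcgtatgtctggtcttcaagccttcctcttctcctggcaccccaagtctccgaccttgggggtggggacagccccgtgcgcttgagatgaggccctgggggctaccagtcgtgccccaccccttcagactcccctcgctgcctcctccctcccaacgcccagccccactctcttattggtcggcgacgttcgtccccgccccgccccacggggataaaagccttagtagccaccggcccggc
The Rgs4 window holds this core on both strands, the first beginning 236 bases before the start, and the other printed windows have no match. Of 115 promoter windows of 68 of the genes, 21.7% hold TGACG on either strand, against 20.8% of all 32851 windows in the RefSeq table, so the share is near that of promoters in general. The windows counted here and below also run past the start, beyond the 250 bases printed above. The full element, TGACGTCA, is in 1.74% of the genes' windows and 1.79% of all windows. It is found in the windows of 1 gene, Prkar1a, a type I regulatory subunit of PKA, and is printed in capitals in the 30 bases at chr11:109650889-109650918 (GRCm38.p6, plus strand).
Prkar1a: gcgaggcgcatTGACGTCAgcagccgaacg
A match is a run of letters, not a measured binding site, and a window without one says nothing of the factor; no data on factor binding were analysed here.

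Rgs4 was high in the Tshbcre and Lhbcre libraries and nearly absent from the Ghcre library. Its level was 35.0 scaled FPKM in adult Tshbcre cells, 0.450 in adult Ghcre cells and 55.5 in adult Lhbcre cells, against 7.00 in the adult whole gland. At P7 it was 60.9 in Tshbcre cells, against 20.5 in the whole gland. Placed in order, P7 Tshbcre and adult Lhbcre cells came highest, then adult Tshbcre cells, the P7 gland, the adult gland and adult Ghcre cells, and the deposited bounds of neighbours did not overlap (58.1 to 63.6 for P7 Tshbcre and 53.0 to 57.9 for adult Lhbcre). Those bounds describe the estimate within a library and not the spread between animals. Compared with the adult whole gland, Rgs4 was 4.50-fold higher in Tshbcre cells (log2 difference 2.17, and 2.06 to 2.28 from the bounds) and 7.06-fold higher in Lhbcre cells (log2 difference 2.82). In Ghcre cells it was 5.51-fold lower (log2 difference -2.46); that call was lost, at -1.73, when the libraries were set to an equal sum of FPKM. The P7 difference, 2.87-fold, did not reach the 4-fold line. Rgs4 has 1 annotated transcript, and no assembled transcript added to its value.

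Rgs5 was high in both whole glands and low in all 4 sorted libraries. Adult Tshbcre, Ghcre and Lhbcre cells had 3.11, 1.51 and 1.77 scaled FPKM, against 21.6 in the adult whole gland. At P7, Tshbcre cells held 0.676, against 13.3 in the P7 whole gland. No sorted value came near a whole-gland value. The fold differences were 5.49-fold lower in adult Tshbcre, 8.99-fold lower in Ghcre, 8.15-fold lower in Lhbcre and 8.52-fold lower in P7 Tshbcre cells. The 3 adult comparisons share the 1 adult whole gland, so they are not independent of each other. Markers of mesenchymal cells and pericytes (Pdgfrb, Dcn, Col1a1 and Mgp) were also lower in sum in the sorted libraries than in the whole glands. Their summed level was 13.6 in adult Tshbcre, 2.81 in Ghcre (3 of 4 listed), 4.31 in Lhbcre and 2.99 in P7 Tshbcre cells, against 68.4 in the adult and 167.4 in the P7 whole gland. Of these markers, 3 of 4, 2 of 3, 3 of 4 and 4 of 4 were called lower in those comparisons. Of all genes, 3.84%, 5.36%, 5.46% and 6.11% were called lower there, and no marker was listed at 0. Dcn was the marker not called in adult Tshbcre cells, at 6.62, against 7.36 in the adult whole gland. Between the whole glands the marker sum was higher at P7, while Rgs5 was higher in the adult. Endothelial markers (Plvap, Pecam1, Cdh5 and Kdr) summed to 12.8 in adult Tshbcre, 25.2 in Lhbcre and 2.81 in P7 Tshbcre cells, against 94.1 and 64.5 in the adult and P7 whole glands; the part of these cells in the Rgs5 difference was not tested.

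Rgs16, an RGS protein of the same subfamily as Rgs4 and Rgs5, was low in both Tshbcre libraries. It stood at 1.20 scaled FPKM in adult Tshbcre, 9.31 in Ghcre and 6.56 in Lhbcre cells, against 6.59 in the adult whole gland. In P7 Tshbcre cells it stood at 1.02, against 4.89 in the P7 whole gland. Its log2 differences, -1.79 in adult Tshbcre and -1.54 in P7 Tshbcre cells, did not reach the 4-fold line. Rgs2, which acts mainly on Gq subunits and was also named after its values were seen, lay between 4.17 in adult Lhbcre cells and 15.5 in the P7 whole gland without a call. Its Lhbcre value became 31.4 with assembled transcripts added, the highest of the libraries instead of the lowest.

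**Figure D2:**
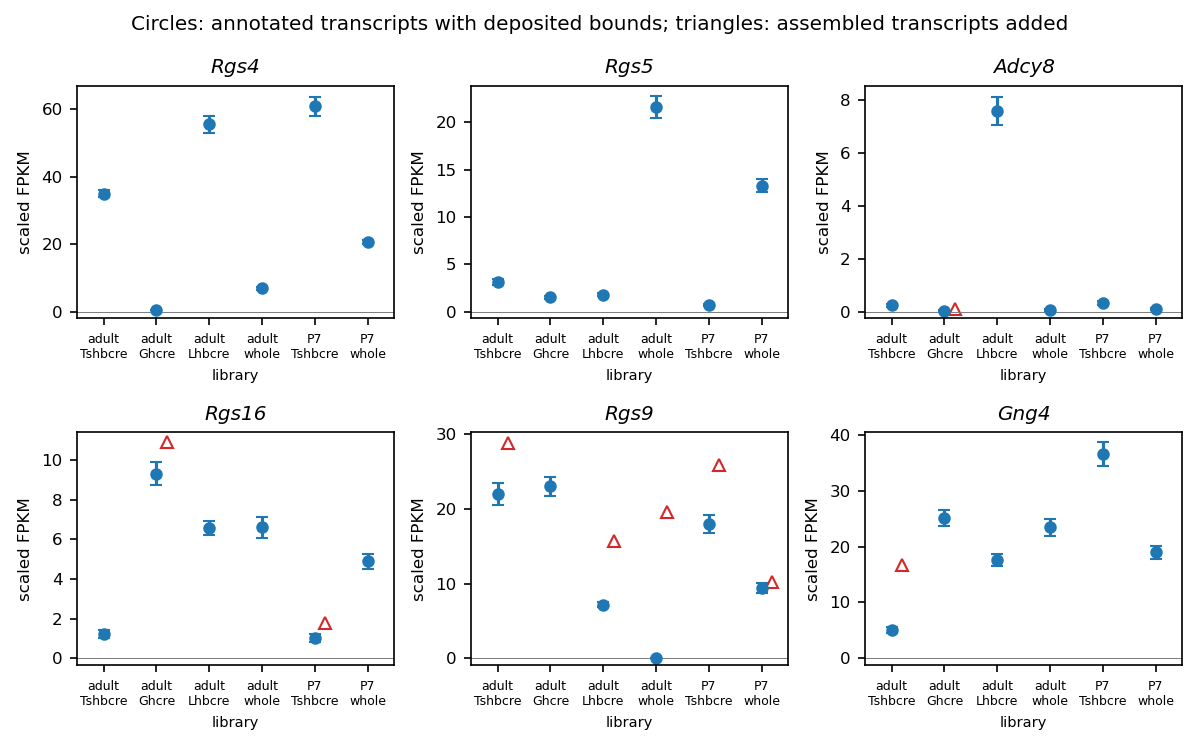
Scaled FPKM of 6 genes in each library; circles are the annotated transcripts with the deposited bounds of the estimate, and triangles the value with assembled transcripts added where it is higher. No assembled transcript added to Rgs4 or Rgs5, and Adcy8 changed only in Ghcre cells (0.0219 to 0.0970), so their order had no second value to be set against. The 0 of Rgs9 in the adult whole gland becomes 19.5 and the low Gng4 of adult Tshbcre cells becomes 16.7.

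The remaining RGS calls were lost when assembled transcripts were added. Rgs9 and Rgs11 belong with Rgs6 and Rgs7 to the R7 group, whose proteins form stable pairs with the G beta 5 subunit. Rgs9 stood at 22.0 scaled FPKM in adult Tshbcre, 23.0 in Ghcre and 7.19 in Lhbcre cells and was listed at 0 in the adult whole gland. At P7 it stood at 17.9 in Tshbcre cells, against 9.41 in the whole gland. With assembled transcripts added, the adult whole gland had 19.5, Lhbcre cells 15.7 and adult Tshbcre cells 28.8, and none of the Rgs9 calls remained. The most abundant Rgs9 transcript also differed: NM_011268.2 held 77.5% of the annotated level in adult Tshbcre, 50.9% in Ghcre and 0% in Lhbcre cells, where NM_001165934.1 held all of it. Rgs11 was listed at 0 in Ghcre cells, Lhbcre cells and the adult whole gland and stood at 9.60 in adult Tshbcre cells. The P7 Tshbcre library had 7.22, against 2.20 in the P7 whole gland. With assembled transcripts Rgs11 was 19.5 in adult Tshbcre, 5.02 in Ghcre and 7.92 in Lhbcre cells, against 5.39 in the adult whole gland; the Tshbcre library stayed highest, under the 4-fold line. The partner Gnb5, named here for that role after its values were seen, was at 15.2 in adult Tshbcre and 14.2 in Lhbcre cells, against 11.6 in the adult whole gland. Rgs3 was called lower in P7 Tshbcre cells, at 0.556, against 6.78 in the P7 whole gland (log2 difference -2.32). With assembled transcripts it had 1.63, against the same 6.78, and the call was lost.

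Among the adenylyl cyclases, Adcy6 and Adcy5, the forms inhibited by calcium, made up most of the level in every library, and Adcy8, a form stimulated by calcium and calmodulin, was high in 1 library. Adcy8 stood at 7.58 scaled FPKM in adult Lhbcre cells, 0.235 in adult Tshbcre cells and 0.0219 in Ghcre cells, against 0.0594 in the adult whole gland. At P7 it stood at 0.326 in Tshbcre cells, against 0.0837 in the whole gland. The Lhbcre value alone exceeded 1. On the log2(scaled FPKM + 1) scale Adcy8 was 8.10-fold higher in Lhbcre cells than in the adult whole gland (log2 difference 3.02, and 2.87 to 3.15 from the bounds). It was 6.95-fold lower in adult Tshbcre than in adult Lhbcre cells (log2 difference -2.80). Of the Lhbcre level, 52.8% was assigned to NM_009623.2 and 47.2% to NM_001291903.1. The gene lies at chr15:64570884-64794145 (mm39) and overlaps Gm30752. The Lhbcre library also differed in sex markers: Xist, expressed from the inactive X chromosome of females, stood at 29.4 in Lhbcre cells and 0.11 in adult Tshbcre cells, against 0.06 in the adult whole gland. At P7 Xist was at 62.6 in Tshbcre cells, against 17.0 in the whole gland. Ddx3y, on the Y chromosome, stood at 0.01 in Lhbcre cells and 3.20 in adult Tshbcre cells, against 2.61 in the adult whole gland. At P7 Ddx3y was at 2.09 in Tshbcre cells, against 2.12 in the whole gland. Sex is not in the labels and cannot be told apart from driver or age in comparisons of these libraries. The part of sex in the Adcy8 difference, and in the other Lhbcre and age differences, was not tested.

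Adcy6 was at 41.0 scaled FPKM in adult Tshbcre, 39.5 in Ghcre and 33.0 in Lhbcre cells, against 35.4 in the adult whole gland. Among the P7 libraries, Tshbcre cells had 37.3, against 24.3 in the P7 whole gland. The Adcy6 estimate of adult Tshbcre cells carried a failed status in all 17 lines, with bounds at 0. Adcy5 was at 14.5 in adult Tshbcre, 20.3 in Ghcre and 8.68 in Lhbcre cells, against 14.0 in the adult whole gland. In Tshbcre cells at P7 the level was 12.3, against 6.61 in the P7 whole gland. Neither gene was called in any comparison. With assembled transcripts the Lhbcre value of Adcy5 became 31.4, the highest of the libraries. Adcy2 was called lower in Lhbcre cells, where it was listed at 0, against 6.27 in the adult whole gland, and reached 5.83 there with assembled transcripts. Adcy3 was listed at 0 in P7 Tshbcre cells, against 3.32 in the P7 whole gland, and reached 2.22 with assembled transcripts.

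Among the G alpha subunits, Gna12 was the one gene called in any of the 7 comparisons. Gnao1, the alpha subunit of Go, was at 49.9 scaled FPKM in adult Tshbcre and 35.5 in Lhbcre cells, against 46.2 in the adult whole gland. At P7, Tshbcre cells held 50.4, against 36.0 in the P7 whole gland. Its 1.42-fold range was the only one under 1.5-fold among genes at 5 or more in every library that listed them. Gnai2, the main alpha subunit of Gi here, was at 31.1 in adult Tshbcre and 30.8 in Lhbcre cells, against 41.3 in the adult whole gland. The P7 Tshbcre library had 27.0, against 42.3 in the P7 whole gland. Gna11, of the Gq class, ranged from 11.1 in P7 Tshbcre cells to 16.9 in the adult whole gland over all 6 libraries. Gna12, of the G12/13 class of alpha subunits, stood at 11.7 in Lhbcre cells and was listed at 0 in the other 4 libraries that listed it. With assembled transcripts those 4 had 9.69 to 16.5, and no call remained.

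The G beta and G gamma subunits form the dimer that carries its own signal once the alpha subunit is released. The summed level of the 5 G beta genes was lower in the Lhbcre library than elsewhere (stacked bars of G beta and PKA subunits): 156 scaled FPKM in adult Tshbcre and 71.1 in Lhbcre cells, against 160 in the adult whole gland. Among the P7 libraries, Tshbcre cells had 133, against 148 in the P7 whole gland. Gnb2 was at 75.0 in adult Tshbcre and 22.5 in Lhbcre cells, against 75.7 in the adult whole gland. At P7 it was at 67.2 in Tshbcre cells, against 71.5 in the whole gland. Gnb1 was at 47.5 in adult Tshbcre, 24.1 in Ghcre and 22.5 in Lhbcre cells, against 53.1 in the adult whole gland. In Tshbcre cells at P7 the level was 50.3, against 49.9 in the P7 whole gland. Neither difference reached 4-fold; in Lhbcre cells the log2 difference from the adult whole gland was -1.71 for Gnb2, between -1.89 and -1.28 over the alternatives, and -1.20 for Gnb1, between -1.39 and -0.77. Gnb3 was called lower in P7 Tshbcre cells, at 3.40, against 17.3 in the P7 whole gland, and higher in adult Tshbcre cells, at 18.4, than in P7 Tshbcre cells. It was at 11.9 in Lhbcre cells, against 19.4 in the adult whole gland. With assembled transcripts P7 Tshbcre cells had 19.3 and both calls were lost.

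Gng4 was called lower in adult Tshbcre cells, at 5.05 scaled FPKM, against 23.5 in the adult whole gland, and against 36.6 in P7 Tshbcre cells. Ghcre cells had 25.2 and Lhbcre cells 17.6, and the P7 whole gland had 18.99. In adult Tshbcre cells the whole level was assigned to NM_010317.3, while NM_001302997.1 held between 68.3% and 79.5% in the other libraries. Adding assembled transcripts gave 16.7 in adult Tshbcre cells and removed both calls. Gng3 was listed at 0 in Ghcre and Lhbcre cells and at 6.08 in adult Tshbcre cells, against 3.66 in the adult whole gland. At P7, Tshbcre cells held 9.32, against 4.91 in the P7 whole gland. Assembled transcripts did not change these values. Gng3 overlaps Bscl2, and how reads of the pair were divided is not stated. Gng5 was highest in Ghcre cells, at 25.6, with 11.9 in adult Tshbcre and 9.85 in Lhbcre cells, against 8.71 in the adult whole gland, a log2 difference of 1.45 for Ghcre that was not called. At P7, Gng5 had 11.4 in Tshbcre cells, against 12.3 in the whole gland. Gng2 lay between 12.0 in Ghcre cells and 26.7 in P7 Tshbcre cells without a call.

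**Figure D3:**
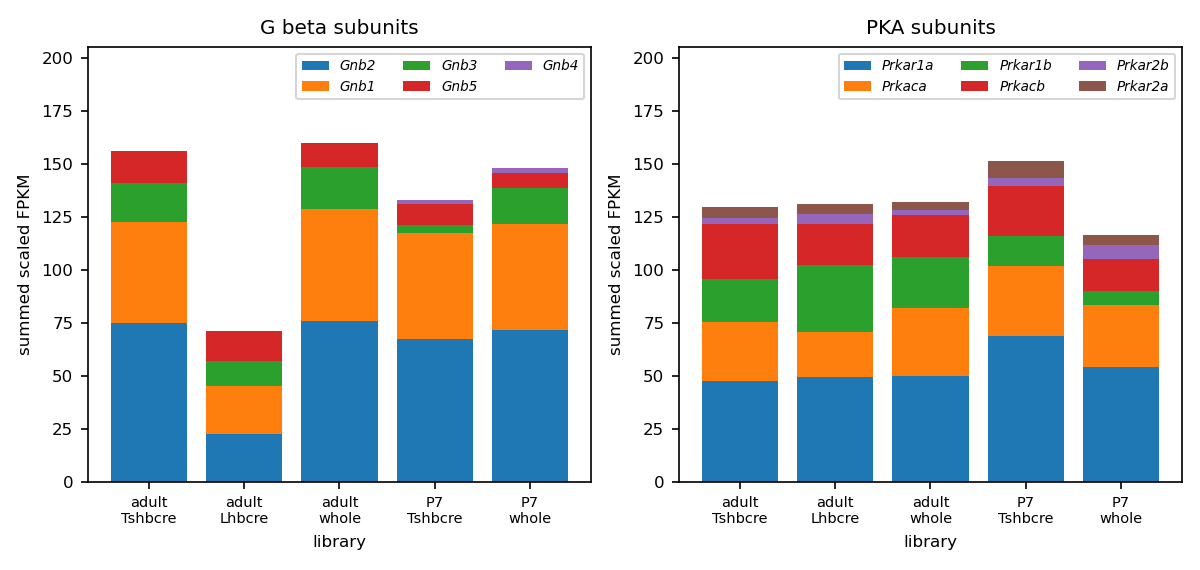
Stacked scaled FPKM of the 5 G beta genes and the 6 PKA genes in the 5 complete tables; the adult Ghcre library is left out because its table lists 2 of the G beta and 3 of the PKA genes. The G beta bar of Lhbcre cells ends at 71.1 and the others between 133 and 160, while the PKA bars end between 117 and 151.

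The 6 PKA subunit genes summed to 130 scaled FPKM in adult Tshbcre and 131 in Lhbcre cells, against 132 in the adult whole gland. The P7 Tshbcre library had 151, against 117 in the P7 whole gland. Prkar1a was the most abundant, with 47.3 in adult Tshbcre, 38.2 in Ghcre and 49.4 in Lhbcre cells, against 49.6 in the adult whole gland. Among the P7 libraries, Tshbcre cells had 68.6, against 54.0 in the P7 whole gland. Prkaca, the main catalytic subunit, lay between 21.3 in Lhbcre cells and 33.1 in P7 Tshbcre cells, and is not listed for Ghcre cells. Its Lhbcre value became 34.7 with assembled transcripts added, the highest of the libraries instead of the lowest. Prkar1b, a type I regulatory subunit best known from neurons, was at 23.8 in the adult whole gland, against 6.56 in the P7 gland. This log2 difference, 1.71, was not called, and Xist also differed between these glands, as given above. Prkar1b was at 20.02 in adult Tshbcre and 31.7 in Lhbcre cells, and at 14.1 in P7 Tshbcre cells. Prkar2b, like Prkar2a a type II regulatory subunit that binds anchoring proteins, was the PKA gene with a call. It was at 12.3 in Ghcre cells, 2.86 in adult Tshbcre cells and 4.64 in Lhbcre cells, against 2.23 in the adult whole gland. In Tshbcre cells at P7 the level was 3.94, against 6.74 in the P7 whole gland. The Ghcre difference, 4.12-fold, was lost with FPKM as deposited and with assembled transcripts, which gave 12.3 in Ghcre cells, against 5.98 in the adult whole gland.

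Among the phosphodiesterases, Pde6d and Pde10a reached the highest levels in any library, both in adult Tshbcre cells. Pde6d is not a catalytic subunit but a carrier of prenylated proteins that keeps its family name. It stood at 26.9 scaled FPKM in adult Tshbcre, 6.74 in Ghcre and 8.97 in Lhbcre cells, against 24.2 in the adult whole gland, and the Ghcre and Lhbcre values were the low ones. At P7, Tshbcre cells held 18.4, against 20.3 in the P7 whole gland. Pde10a, which hydrolyses cAMP and cGMP, stood at 22.2 in adult Tshbcre, 7.54 in Ghcre and 8.58 in Lhbcre cells, against 6.93 in the adult whole gland. The P7 Tshbcre library had 8.20, against 5.02 in the P7 whole gland. On annotated transcripts adult Tshbcre cells were highest, but with assembled ones the Ghcre value became 28.4, the Lhbcre value 21.9 and the adult whole gland 16.4, beside 22.2. The most abundant of its 12 annotated transcripts differed between libraries as well. XM_006523320.5 held all of the Ghcre level, NM_001290707.1 held 60.4% in the adult whole gland and XM_006523316.3 held 57.4% in P7 Tshbcre cells. Pde1c, stimulated by calcium and calmodulin, ranged from 1.23 in Lhbcre cells to 8.15 in the P7 whole gland.

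The median difference of these genes was also set beside that of all genes. In Lhbcre cells the median log2 difference from the adult whole gland was -0.39 over the 65 genes compared, beside 0.00 over all genes, and in Ghcre cells it was -0.37 over 43 genes, also beside 0.00. With an equal sum of FPKM the Lhbcre medians were 0.02 for these genes and 0.37 for all genes, and the Ghcre medians 0.70 and 1.09, so the sign depended on the scaling and the order of the 2 medians did not. Adult Tshbcre cells had a median of -0.07, beside -0.02 over all genes, and in P7 Tshbcre cells it was -0.004, beside -0.009. Between the adult and the P7 whole glands the median was 0.16, beside -0.02 over all genes. Between adult and P7 Tshbcre cells it was 0.05, beside -0.02. Between adult Tshbcre and Lhbcre cells it was 0.25, beside -0.02. With assembled transcripts added, the medians between adult and P7 Tshbcre cells were -0.082 and 0.006, so their order turned. It also turned in P7 Tshbcre cells with FPKM as deposited, at -0.52, beside -0.47. In adult Tshbcre cells over the adult whole gland it turned with the higher library at 5 or more, at 0.05, beside -0.05. No test stands behind these medians.

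**Figure D4:**
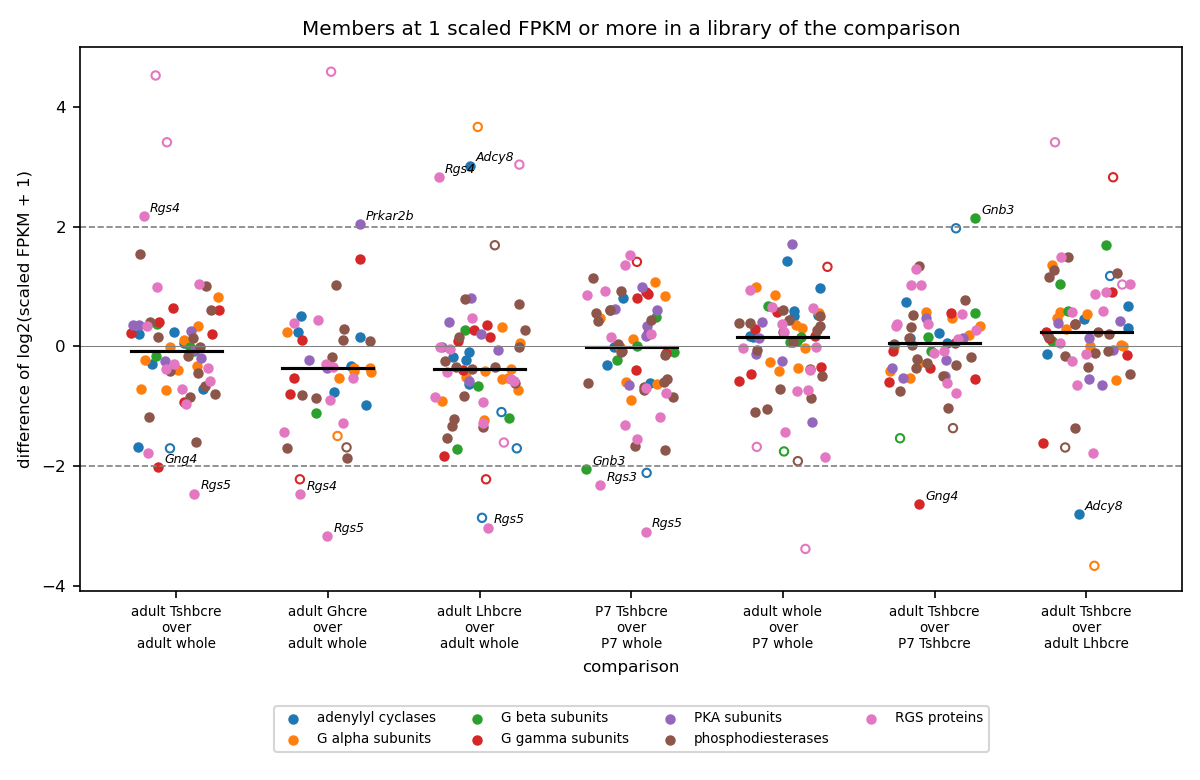
Difference of log2(scaled FPKM + 1) for each gene compared, coloured by family, in the 7 comparisons; open circles are genes at 0 in 1 library, short black lines the medians and dashed lines the 4-fold limit. Named points beyond the dashed lines are calls above 0 in both libraries, and most points lie within the limits in all 7 columns.

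Genes of the same pathway outside these families were described from lists of receptors, PKA partners and targets. Calls on these lists and on the cell-type markers use annotated transcripts only and were not redone with assembled transcripts added. Trhr, which encodes the thyrotropin-releasing hormone receptor, was called higher in adult Tshbcre cells, at 10.9 scaled FPKM, against 0.790 in the adult whole gland. It was called higher in P7 Tshbcre cells too, at 14.6, against 1.36 in the P7 whole gland. Gnrhr, which encodes the gonadotropin-releasing hormone receptor, was called higher in Lhbcre cells, at 53.2, against 8.69 in the adult whole gland; adult Tshbcre cells had 28.4. Of 17 Gq-coupled receptors in the list, 1 of 7 compared was higher and 1 lower in adult Tshbcre cells, 1 of 7 higher and 3 lower in Lhbcre cells, none of 3 higher and 1 lower in Ghcre cells, and 2 of 8 higher and 1 lower in P7 Tshbcre cells. Of all genes compared, 3.22%, 3.85%, 4.44% and 3.26% were called higher and 3.84%, 5.46%, 5.36% and 6.11% lower in those 4 comparisons. With 2 to 10 genes compared per receptor list, 1 call is a large share. Drd2, the dopamine receptor that couples to Gi, was called lower in adult Tshbcre cells, at 3.12, against 23.8 in the adult whole gland. It was called lower in P7 Tshbcre cells as well, at 0.484, against 5.52. Of the Gi-coupled receptors compared, none was higher, and 1 of 10, 1 of 7, none of 8 and 1 of 10 were lower in adult Tshbcre, Ghcre, Lhbcre and P7 Tshbcre cells. Of the Gs-coupled receptors compared, none of 5, 1 of 2, 1 of 5 and 1 of 4 were lower in the same order. None was higher. Each of these Gs calls rested on a receptor listed at 0, Crhr1 in Ghcre cells and Ghrhr in Lhbcre and P7 Tshbcre cells. The Gi call in Ghcre cells was Gabbr1, also listed at 0, against 4.33 in the adult whole gland.

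Downstream of cAMP, Nr4a2, an early response gene, was called lower in adult Tshbcre cells, at 5.26 scaled FPKM, and in Lhbcre cells, at 3.17, against 27.4 in the adult whole gland. Sik1, a kinase gene induced through CREB, was called lower in Lhbcre cells, at 2.18, against 13.0 in the adult whole gland. In P7 Tshbcre cells Sik1 was at 1.32, against 15.0 in the P7 whole gland. Of the cAMP-induced genes compared, 1 of 10, 1 of 8, 3 of 10 and 2 of 11 were lower in adult Tshbcre, Ghcre, Lhbcre and P7 Tshbcre cells, and none was higher, beside 3.84%, 5.36%, 5.46% and 6.11% of all genes called lower. The Ghcre call was Nr4a1, listed at 0, against 67.0 in the adult whole gland, and 1 of the P7 calls was Crem, listed at 0, against 6.27 in the P7 whole gland. The list's medians were -0.68, -1.24, -1.08 and -0.95. Fos, also on that list, was at 171 in Ghcre and 133 in Lhbcre cells, both above the adult whole gland, and at 74.9 in adult Tshbcre cells, below it, against 89.7 in that gland. At P7 it was at 91.9 in Tshbcre cells, against 116 in the P7 whole gland. Per the labels' protocols cells were dispersed with collagenase before sorting; the part of handling in these levels was not tested. Of the EPAC and CREB genes, none of 9 to 11 was called higher in adult sorted cells, and 1 was lower, Creb3 in adult Tshbcre cells, where it was listed at 0, against 17.0 in the adult whole gland. Among PKA inhibitors and anchors, Akap8 was lower in Lhbcre cells, at 2.14, against 12.2 in the adult whole gland. It was the only call of 9 to 12 compared in the adult sorted libraries. In P7 Tshbcre cells 2 of 12 of these genes were lower, Akap8 (listed at 0) and Akap12. Of the EPAC and CREB genes there, 1 of 11 was higher (Creb3, listed at 0 in the P7 whole gland) and 1 lower (Crem). Arrestins and receptor kinases gave 1 lower call of 5 compared in adult Tshbcre cells (Grk3, listed at 0). Grk2, listed at 0 in the adult whole gland, was the 1 higher of 4 in Ghcre and of 7 in Lhbcre cells. The 2 of 7 lower in P7 Tshbcre cells were Grk2 and Grk6, both listed at 0, against 8.45 and 5.94 in the P7 whole gland. Of all genes, 3.84% were lower in adult Tshbcre and 6.11% in P7 Tshbcre cells. In Ghcre cells 4.44% were higher, and in Lhbcre cells 3.85%.

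**Figure D5:**
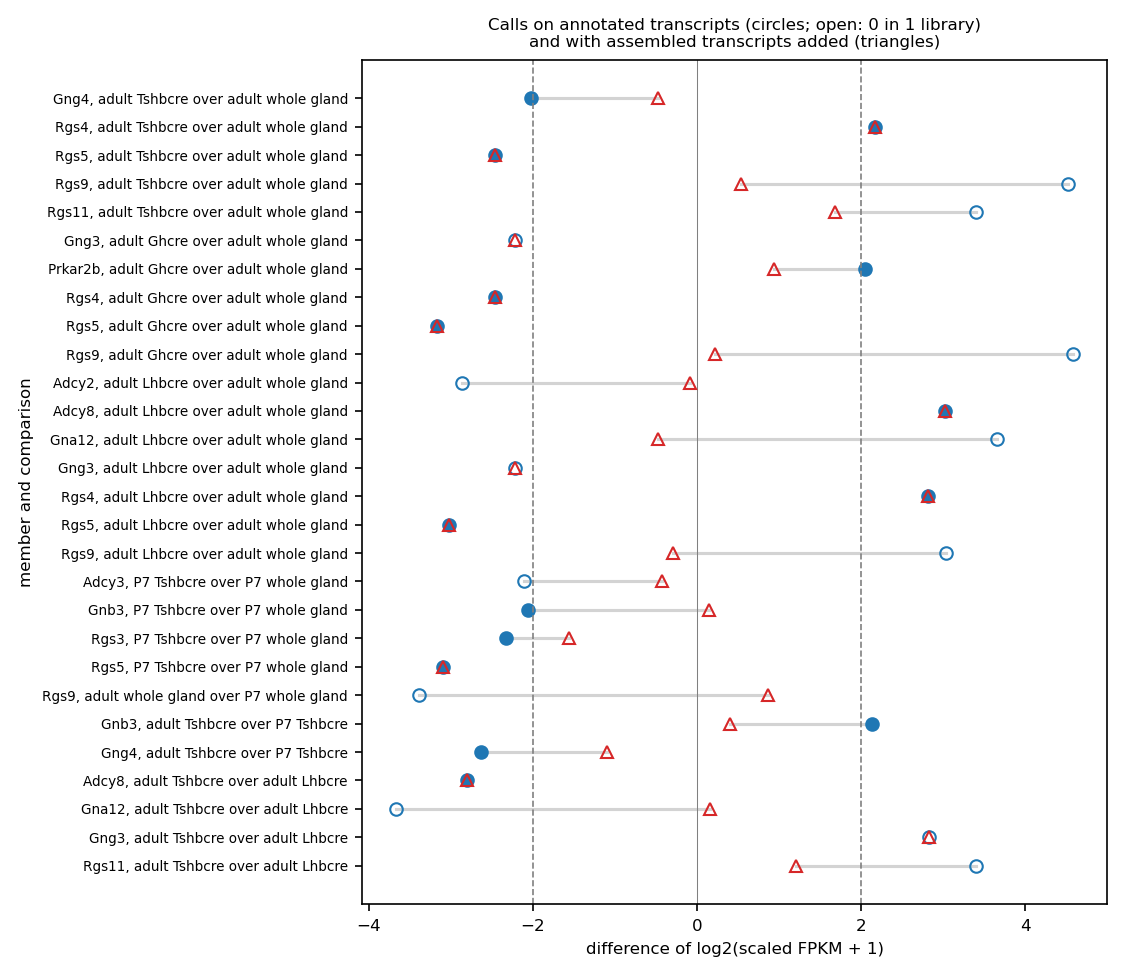
The 28 calls, 1 per row, as the difference of log2(scaled FPKM + 1) on annotated transcripts (circles, open where a library is at 0) and with assembled transcripts added (triangles); dashed lines mark 4-fold. The rows of Rgs4, Rgs5, Adcy8 and Gng3 keep their place because no assembled transcript added to the values compared. The rows of Rgs9, Rgs11, Gna12, Adcy2, Adcy3, Gnb3, Gng4, Rgs3 and Prkar2b move inside the limits.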

How the data were processed

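Each library has 1 deposited Cufflinks isoform table giving, per transcript, an FPKM value with bounds, a status and a coverage. The submitters' processing notes name Bowtie2, Cufflinks, FastQC and mm39 and state no versions. The FPKM values were computed by the authors, and the deposited coverage signal, a constant multiple of FPKM within a file, was used only as relative depth; the number of reads was not used here. RNA was depleted of ribosomal RNA from an input of 250 ng, per the labels.

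Per gene name, FPKM was summed over annotated transcripts and divided by the library's median ratio over 5808 genes at 1 FPKM or more in all 6 tables. Differences are log2(scaled FPKM + 1), and no test was made with 1 library per group (Python 3.11.15, pandas 2.3.3). The scripts were tested on simulated data. Named were the 3 most abundant genes of each family and every gene called while above 0 in both libraries; others are said to be chosen later. Genes and lists were chosen with earlier results of these data known. Promoter sequences are from RefSeq (GRCm38.p6), not the build of the files; in 87 of 115 windows the last 25 bases lay in a GENCODE transcript of the gene. No source used here states whether strand was used.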

Additional observations from a re-analysis of the deposited data

How the results depend on the processing

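No paired analysis was possible because each group has 1 library. The counts of called genes (5, 5, 7, 4, 1, 2 and 4 for adult Tshbcre, Ghcre and Lhbcre over the adult whole gland, P7 Tshbcre over the P7 whole gland, adult over P7 whole gland, adult over P7 Tshbcre, and adult Tshbcre over Lhbcre) moved as follows, in that order. A pseudocount of 0.1 gave 9, 11, 15, 10, 6, 7 and 8, and a fold of 2 gave 13, 14, 20, 14, 12, 10 and 19. Genes above 0 in both libraries gave 3, 3, 3, 3, 0, 2 and 1, and assembled transcripts added gave 2, 3, 4, 1, 0, 0 and 3. FPKM as deposited gave 5, 6, 8, 6, 5, 2 and 4, and an equal sum of FPKM gave 4, 5, 6, 2, 1, 1 and 4. Factors from 5 libraries and other filters on low values left each count within 1.5 times. The higher and lower split in Ghcre cells, 2 and 3, became 1 and 5 as deposited and 4 and 1 with an equal sum. In adult Tshbcre cells it was 3 and 1 with an equal sum, and for adult over P7 Tshbcre cells 0 and 1 with an equal sum and 2 and 1 with 5 libraries. The median log2 ratio of all genes above 0 in both libraries, taken with no pseudocount and so not on the scale of the report's medians, was near 0 with the median-ratio factors. It was -0.17, -0.60, -0.19, -0.56 and -0.40 as deposited in the first 5 comparisons, and with an equal sum 1.54 in Ghcre, 0.50 in Lhbcre and 0.36 in P7 Tshbcre cells, then -0.18, -0.48 and -0.46 in the last 3 comparisons. Assembled transcripts, which add to some libraries more than to others, turned the sign of 5 of 28 called and 57 of 391 uncalled differences. Of the called ones, Rgs9 became -0.30 in Lhbcre cells over the adult whole gland and 0.87 in the adult over the P7 whole gland, and Gnb3 became 0.15 in P7 Tshbcre cells over the P7 whole gland; Gna12 became -0.47 in Lhbcre cells over the adult whole gland and 0.16 in adult Tshbcre over Lhbcre cells. Depth was not given as reads, so a gene listed at 0 has no floor.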
